A study of Homo sapiens with 12 samples.

Results

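Chromatin accessibility of oxamate-resistant MIAPaCa2 cells growing in oxamate was compared with that of untreated parental MIAPaCa2 cells, the adapted state in drug against the starting state. MIAPaCa2 is an established human pancreatic ductal adenocarcinoma line. The resistant cells were the survivors of weeks of continuous oxamate, used as a polyclonal population, and for the assay they were given oxamate for a day. The parental cells received phosphate-buffered saline in its place. The comparison therefore joins the phenotype and the drug and cannot separate them by itself. It used 6 of the 12 ATAC-seq libraries of the series, 3 per group. The 3 libraries of untreated resistant cells and the 3 of oxamate-treated parental cells played no part in choosing the regions and were read afterwards. The labels number the replicates but do not say whether they were separate cultures, so p-values measure only the spread between these libraries.

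The peaks of the 6 lists were merged wherever they overlapped by at least 1 bp, on chromosomes 1 to 22 and X, which gave 117441 regions. A region was called gained if all 3 resistant treated lists and 0 of the 3 parental untreated lists held a peak in it, and lost if the reverse was true. There were 728 gained regions, 0.62% of all regions, and 603 lost regions, 0.513%. These words name a pattern of calls and not a test, because Fisher's exact test of 3 against 3 libraries cannot go below p = 0.1 for 1 region. The lists hold no read counts. A missing peak cannot tell closed chromatin from a smaller share of cells with open chromatin, or from a signal under the peak limit. An absent call alone therefore does not give the state of the chromatin.

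Oxamate resembles pyruvate and inhibits lactate dehydrogenase, the enzyme that turns pyruvate into lactate at the end of glycolysis. In ATAC-seq the Tn5 transposase cuts DNA that is not wrapped around nucleosomes, so its peaks mark active gene starts and the enhancers that lie between and inside genes. Gene starts are often open in many cell types, whereas distal sites differ more between cell states.

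The promoter sequences below are from RefSeq, build GRCh38.p14, and show the 250 bases before the start of 5 genes. They are a selection among genes whose gained or lost peak lay on the start itself. Others that met this condition, such as ABCD2 and ABCA1, are not printed. TGFBR2, the type II receptor for TGF-beta, CLDN4, a tight junction claudin, and KLHL4, a kelch-like protein, carried gained peaks. PPP1R36, a regulatory subunit of a protein phosphatase, and DUSP10, a phosphatase of the stress kinases p38 and JNK, carried lost peaks. Each sequence runs 5′ to 3′ on the strand of the gene. Capitals mark motif letters found on either strand. The stress-responsive motifs searched were AP-1, spelled TGANTCA, and the cyclic AMP response element, spelled TGACGTCA. General promoter motifs were the NF-Y site CCAAT, the GC box with the letters GGGCGG, and the TATA box, taken as TATAAA. The E-box was searched as CACGTG, and the ETS factor site was searched as CCGGAAG. A match describes the letters only.
TGFBR2 (chr3:30606351-30606600, plus strand): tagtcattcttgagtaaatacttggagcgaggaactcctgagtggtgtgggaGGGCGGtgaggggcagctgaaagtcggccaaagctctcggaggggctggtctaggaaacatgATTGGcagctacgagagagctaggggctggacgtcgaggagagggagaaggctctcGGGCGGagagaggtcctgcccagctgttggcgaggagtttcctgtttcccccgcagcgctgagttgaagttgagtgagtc
CLDN4 (chr7:73830746-73830995, plus strand): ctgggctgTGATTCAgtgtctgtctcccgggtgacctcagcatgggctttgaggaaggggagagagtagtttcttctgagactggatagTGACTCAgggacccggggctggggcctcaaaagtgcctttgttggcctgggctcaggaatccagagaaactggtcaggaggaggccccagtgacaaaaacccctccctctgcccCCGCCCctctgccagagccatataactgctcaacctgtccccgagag
KLHL4 (chrX:87517552-87517801, plus strand): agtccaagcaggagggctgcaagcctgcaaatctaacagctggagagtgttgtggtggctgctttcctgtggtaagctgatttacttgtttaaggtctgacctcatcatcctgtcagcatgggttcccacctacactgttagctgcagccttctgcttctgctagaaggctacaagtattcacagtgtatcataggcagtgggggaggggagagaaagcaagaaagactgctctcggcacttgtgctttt
PPP1R36 (chr14:64549711-64549960, plus strand): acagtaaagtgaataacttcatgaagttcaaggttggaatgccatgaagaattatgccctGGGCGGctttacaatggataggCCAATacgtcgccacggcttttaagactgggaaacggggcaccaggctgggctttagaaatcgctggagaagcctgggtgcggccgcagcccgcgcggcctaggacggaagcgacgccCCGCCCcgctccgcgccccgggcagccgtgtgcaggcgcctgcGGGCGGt
DUSP10 (chr1:221742090-221742339, minus strand): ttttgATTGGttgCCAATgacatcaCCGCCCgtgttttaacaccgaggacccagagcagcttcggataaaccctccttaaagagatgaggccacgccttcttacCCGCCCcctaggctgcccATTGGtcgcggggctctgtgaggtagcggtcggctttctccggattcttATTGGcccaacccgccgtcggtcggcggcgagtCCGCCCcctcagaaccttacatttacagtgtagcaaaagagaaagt

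The TGFBR2 window shown held GC boxes and 1 NF-Y match, and the CLDN4 window held AP-1 matches and a GC box. The KLHL4 window held none of the letters searched. Both windows of genes with lost peaks held GC box and NF-Y letters. Over the promoter windows (250 bases before to 50 after a start, letters searched in the 250) that gained regions touched, 8 of 30 held CCAAT and 17 of 30 held GGGCGG. Over those that lost regions touched, 7 of 8 held CCAAT and 5 of 8 held GGGCGG. Among all 22131 windows of protein-coding genes the shares were 32.7% for CCAAT and 53.7% for GGGCGG. The AP-1 letters TGANTCA were found in 1 of the 30 gained, 1 of the 8 lost and 5.35% of all windows. For the remaining motifs the shares of all windows were 2.02% for TGACGTCA, 7.37% for CACGTG, 10.7% for CCGGAAG and 9.0% for TATAAA. They were found in 1, 4, 0 and 1 of the 30 gained windows, in that order, and in 0 of the 8 lost windows.

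The groups differed in ways that bear on every count. Parental untreated lists held 59845, 59982 and 61469 peaks and resistant treated lists 58527, 47681 and 53811, a difference that reached the smallest two-sided p of an exact permutation test of 3 against 3 (p = 0.1, adjusted p = 0.143 over 10 tests). With peaks limited to a -log10 q of 3 or more it reversed, to 2944 more peaks per resistant treated list. The smallest peak width, which follows the mean fragment length, was 75 to 87 bp in parental untreated and 94 to 112 bp in resistant treated libraries. Relative depth, with the shallowest of the 6 libraries at 1, was 1.33 to 1.77 against 1.0 to 1.13. None of these ranges overlapped between the groups, so fragment length, depth and cell state cannot be told apart here. As a check of the labelled line, the starts of VIM, ZEB1, KRT8, KRT18 and AXL had a peak in all 6 lists. Of 12 starts that mark blood, liver, islet, acinar or endothelial cells, 10 had a peak in 0 of 6 lists, APOA1 had one in all 6, and CPA1 had one in 1 list.

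The 728 gained and 603 lost regions made 1331 that separated the groups completely. When the same 6 libraries were divided 3 against 3 in the other 9 possible ways, the total lay between 403 and 903, with a median of 471. The labelled groups thus gave the largest total of the 10 (one-sided exact permutation p = 0.1, the smallest that 6 libraries allow, adjusted p = 0.143). With a -log10 q limit of 3, with 50% cover and with 1 kb windows, the exact permutation p was 0.2. The gained count taken alone was passed once. With parental untreated replicates 1 and 3 and resistant treated replicate 2 on one side, 746 regions were called only on the other side. In that division the lists on the side with 746 covered 25.5 to 30.7 Mb, each more than any list on the opposite side, and the part of covered bases in the counts was not tested.

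**Figure D1:**
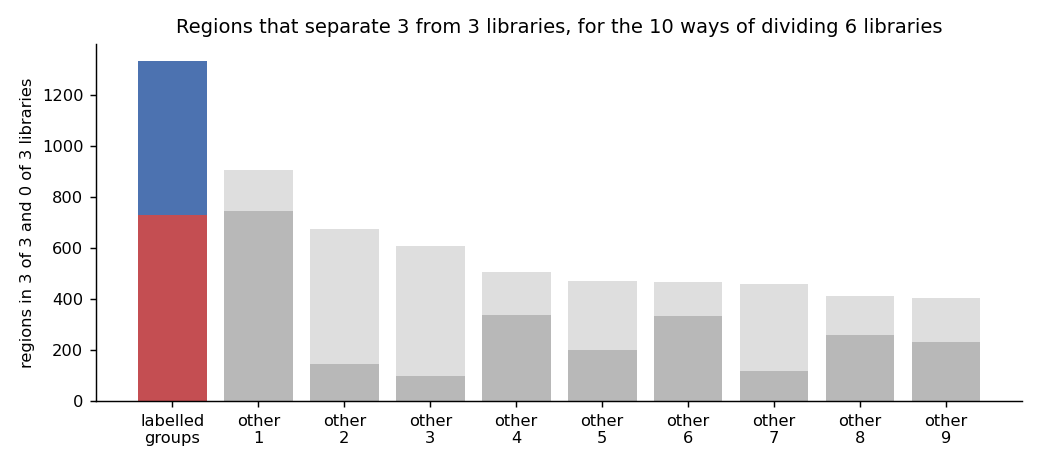
Number of regions called in 3 of 3 and 0 of 3 libraries (vertical axis) for each of the 10 ways to divide the 6 libraries; in the labelled groups red is gained and blue is lost, and in the others dark and light grey are the opposite directions. The labelled groups total 1331 and the others 403 to 903, and the dark part of the first grey bar, 746, is above the 728 gained.

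Regions just outside the rule were more numerous than those inside it. Another 1194 regions were in 3 resistant treated lists and 1 parental list, and 2396 were in 2 resistant treated and 0 parental lists. On the lost side the corresponding counts were 1177 and 2545. Of all regions, 31160 were in 6 of 6 lists and 59668 were in 1 list. The Jaccard index of 2 lists, the bases in both divided by the bases in either, averaged 0.525 over pairs of parental untreated lists, 0.577 over pairs of resistant treated lists and 0.533 between the groups. Between-group distance exceeded within-group distance by 0.0186 (one-sided exact permutation p = 0.2). That excess was -0.00398 without resistant treated replicate 1 and -0.000559 without resistant treated replicate 3.

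Gained regions often had a peak in resistant cells given no oxamate for the assay, and seldom in parental cells given it. The untreated resistant cells had also been made by weeks in oxamate, so they were not free of earlier exposure. They had a peak in 76.1%, 56.9% and 68.7% of cases in the 3 untreated resistant libraries and in 7.28%, 16.5% and 9.89% in the 3 oxamate-treated parental libraries. The lowest untreated resistant library stood above the highest treated parental library. The means were 67.2 ± 9.7% (SD, n = 3) and 11.2 ± 4.74% (SD, n = 3), with a two-sided exact permutation p of 0.1, the smallest possible, and an adjusted p of 0.143. Of all regions, the same libraries called 38.1% to 43.5% and 29.2% to 35.0%. Smallest peak widths were 98 to 124 bp in untreated resistant and 67 to 81 bp in treated parental libraries, so fragment length and phenotype cannot be told apart in these 6 libraries either.

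Lost regions had a peak in 33.5%, 35.7% and 29.0% of cases in untreated resistant libraries and in 43.1%, 59.0% and 42.1% in treated parental libraries. The ranges did not overlap, with means of 32.7 ± 3.38% (SD, n = 3) and 48.1 ± 9.49% (SD, n = 3) and a two-sided exact permutation p of 0.1 (adjusted p = 0.143). The difference of -15.4 percentage points was -4.24 (exact permutation p = 0.7) when only peaks of at least 124 bp were kept. Leaving out treated parental replicate 2 gave -9.89.

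**Figure D2:**
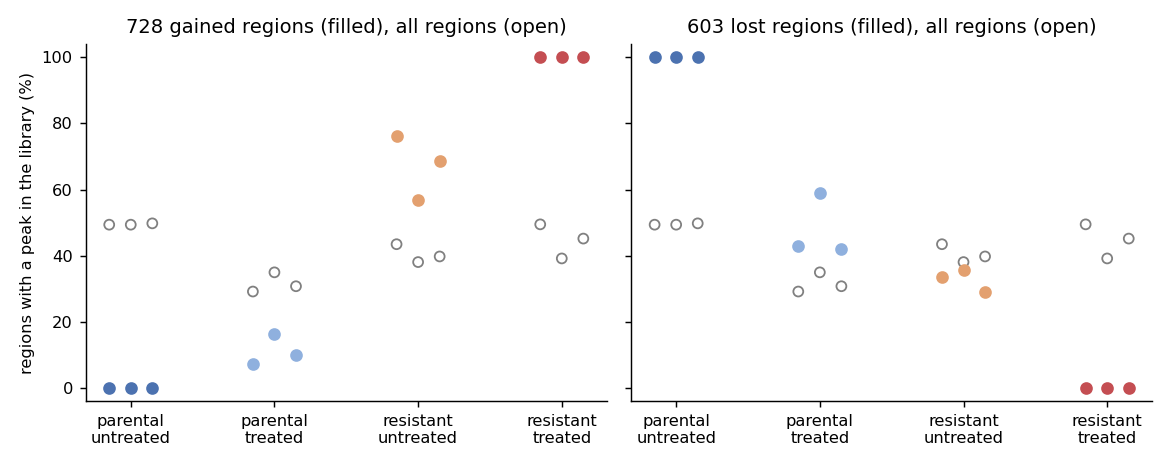
Percent of the 728 gained (left) and 603 lost (right) regions with a peak in each of the 12 libraries (filled points), beside the percent of all 117441 regions (open points); the 0% and 100% points are fixed by the rule. Gained regions are at 56.9% to 76.1% in untreated resistant and 7.28% to 16.5% in treated parental libraries.

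The calls in those 6 libraries were also read region by region. Among gained regions, 211 (29.0%) had a peak in 3 of 3 untreated resistant and 0 of 3 treated parental libraries, so that every resistant and no parental library held them. The reverse pattern, a peak in 3 of 3 treated parental and 0 of 3 untreated resistant libraries, was seen in 0 of 728. Another 56 gained regions had a peak in none of those 6 libraries. Among lost regions, 46 were in 3 of 3 treated parental and 0 of 3 untreated resistant libraries, 9 showed the reverse, and 77 were in none. How often these patterns occur among all regions was not counted. Untreated resistant libraries called more of all regions, 38.1% to 43.5% against 29.2% to 35.0% in treated parental libraries, which bears on both directions.

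Gained and lost regions lay mostly away from gene starts. Of gained regions, 50 (6.87%, exact binomial 95% interval 5.14 to 8.95) were within 1 kb of the start of a protein-coding gene, as were 28 lost regions (4.64%, 3.11 to 6.64). The share was 12.9% over all regions and 36.6% over those in 6 of 6 lists. It was 6.1% over all regions called in any 3 of the 6 lists, which have as many calls as gained and lost regions. A start here was a RefSeq start entry or, for the 4159 genes without one, either end of the gene. With start entries alone, and chromosome 8 left out because none of its genes had one, the share was 5.8% for gained, 2.76% for lost, 10.5% for all regions and 4.35% for those in any 3 lists. With peaks limited to a -log10 q of 3 or more it was 12.0% for gained and 4.37% for lost regions. The intervals cover counting error only. Inside the span of a protein-coding gene lay 46.6% of gained and 44.6% of lost regions, against 57.8% of all regions and 51.6% of those in any 3 lists.

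Most gained and lost peaks were modest. The authors' fold over local background, a value that belongs to a peak within its own list, had a median of 3.89 in gained and 3.55 in lost regions. The median list fold over all peaks was 4.71 for resistant treated and 4.01 for parental untreated libraries. By −log10 q, with the strongest peaks at the lowest percent, the median rank was 71.2% for gained and 63.7% for lost regions. No peak of the other group lay within 1 kb of 618 gained and 463 lost regions. A -log10 q of at least 3 in all 3 of their lists was held by 136 gained and 101 lost regions. Counted afresh with such peaks alone there were 741 gained and 229 lost regions, and 605 and 128 of these were not among those counted before, since the region made from all peaks also held a peak of the other group. The lost count depended on widths as well. It was 348 with peaks of at least 112 bp and 47 with 1 kb windows, against 920 and 474 gained.

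**Figure D3:**
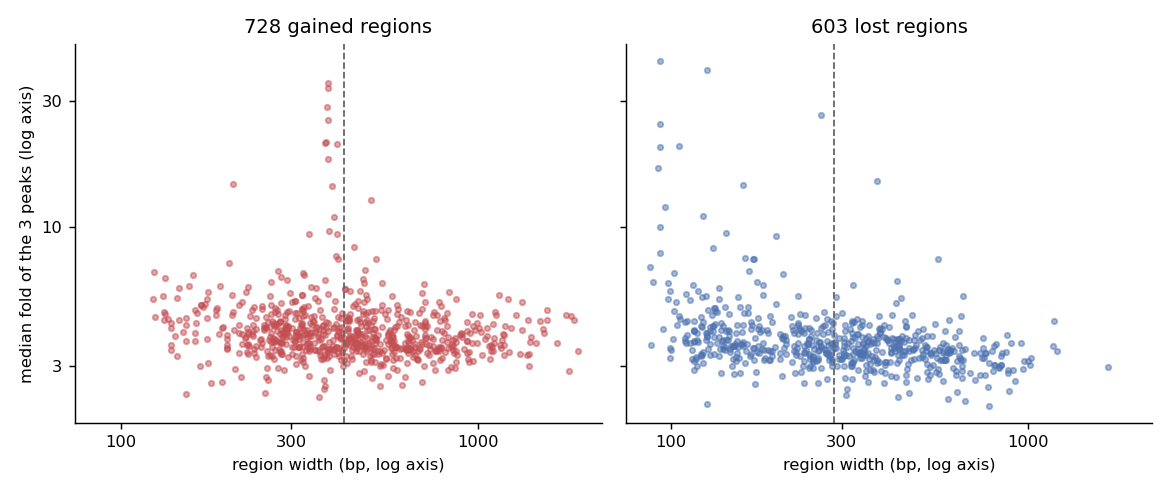
Median of the authors' fold in the 3 lists that hold a region (vertical log axis) against the width of the region in bp (horizontal log axis), 1 point per region, with the median width dashed at 422 bp for gained and 285 bp for lost regions. Most points lie near a fold of 3 to 5, and a small set of gained regions near 380 bp and of lost regions near 93 bp stands above them.

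The best-ranked gained regions stood apart from this majority. They were ordered by the rank of their -log10 q within each list, and the first lay in CTNNB1, which encodes beta-catenin, at chr3:41231653-41232032. Its fold was 33.2, 34.8 and 34.9 in the resistant treated lists and 30.5, 35.2 and 35.8 in the untreated resistant lists, with a peak in 0 of 6 parental lists. This region split all 12 libraries by phenotype. The next lay inside GRM7, a metabotropic glutamate receptor gene, at chr3:7101591-7101970. Its folds were 33.4, 34.2 and 33.3 under oxamate and 32.7, 35.1 and 36.9 without it, again with 0 parental lists. The CTNNB1 region was 32148 bp from the nearest start entry, that of CTNNB1 itself, and the GRM7 region was 240476 bp inside its gene.

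The other 8 of the 10 best-ranked gained regions were inside ZSWIM2, NKAIN2 and SDHAF3, the last an assembly factor of succinate dehydrogenase, or nearest to TMEFF2, LNPK, AADAT, SAMD5 and SLC35F5. The distance to the start was 1064855 bp for TMEFF2, 406972 bp for AADAT, 46182 bp for SLC35F5 and 26737 bp for LNPK. For SAMD5, which has no start entry, it was 17453 bp to a gene end. The SDHAF3 region at chr7:97181573-97181952 had folds of 18.0, 15.2 and 18.8 in the resistant treated and 19.6, 20.4 and 23.7 in the untreated resistant lists. All 10 regions were in 0 of 3 treated parental lists, and 8 of the 10 were in 3 of 3 untreated resistant lists. The exceptions were ZSWIM2, in 2 of 3, and the region near AADAT, in 1 of 3. Of the 10, 9 were 370 to 410 bp wide, against 57 of all 728 gained regions. That range was set after these widths were seen, so the contrast is a description only.

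Lost regions had a mirror set. The first, at chr6:124039778-124039870, also lay inside NKAIN2, a gene for a protein that interacts with the sodium pump, at another place than the gained one. Its folds were 39.5, 42.2 and 44.1 in the parental untreated and 43.6, 43.0 and 38.4 in the treated parental lists, with 0 of 6 resistant lists. The next, inside the kinase gene MOK at chr14:102298352-102298477, had folds of 39.1, 36.6 and 45.2 without oxamate and 47.3, 43.1 and 38.7 with it in parental cells. The third, inside OLA1, which encodes an Obg-like ATPase, was at chr2:174227583-174227845 with folds of 26.5, 29.2 and 25.5. These regions too followed phenotype in all 12 libraries.

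Of the 10 best-ranked lost regions, 8 were in 3 of 3 treated parental and 0 of 3 untreated resistant lists. The region inside GALNTL6 was also in 2 untreated resistant lists. The one nearest to LOC107985043, 432857 bp from its start, was in none of the other 6 lists. The remaining ones were nearest to PTPRD (792825 bp from the start), ZNF337 (512445 bp), CDH9 (483003 bp), CALCRL (144319 bp) and TPTE (133676 bp). Of the 10, 6 were 87 to 110 bp wide, a range also set after the widths were seen, against 30 of all 603 lost regions. These widths lie near the smallest peak widths of the parental untreated libraries, 75 to 87 bp, while those of the resistant treated libraries were 94 to 112 bp. The part of width in these calls was not tested.

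Starts of protein-coding genes were read next, with a gene's start called in a library if a peak lay within 1 kb of any of its annotated starts. Of 19970 genes, 11894 (59.6%) had a start called in 6 of 6 lists and 6181 in 0 of 6. Starts gained by the same rule numbered 29 (0.145%) and starts lost 13 (0.0651%). Of these, 7 gained starts (SPATC1, PCDHB11, LRRIQ1, UBA7, STC1, C8orf74 and TRARG1) and 3 lost starts (P2RX6, GRB7 and CTSW) are of genes without a start entry, where the call was made at a gene end that may not be the start. Over the 15811 genes with an entry, 22 starts (0.139%) were gained and 10 (0.0632%) lost. They came within the rule narrowly: 70 further starts had 3 resistant treated calls and 1 parental call, and 25 had 3 parental calls and 1 resistant treated call. Of the 29 gained starts, 12 were called in 3 of 3 untreated resistant libraries, 23 in 0 of 3 treated parental libraries, and 11 met both. Of the 13 lost starts, 0 were in 3 of 3 treated parental and 0 of 3 untreated resistant libraries. The same patterns were not counted over all starts, so these counts have no share to stand beside.

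TGFBR2 was the 1 gained start among 19 genes of the mesenchymal list, and CLDN4 the 1 among 18 genes of the epithelial list. At the start of TGFBR2 a region at chr3:30606405-30606726 had folds of 5.27, 6.51 and 5.57 in the resistant treated lists and 5.29, 3.53 and 6.41 in the untreated resistant lists. All 6 resistant libraries held it and none of the 6 parental libraries did. The divergent gene LOC105377015 shares that region, so a peak there cannot be assigned to 1 of the genes. At CLDN4 a region at chr7:73830885-73831209 had folds of 2.54, 3.16 and 3.11 under oxamate and 2.41, 2.86 and 2.59 without it. It too was in every resistant and no parental library, at a lower fold than TGFBR2 in each resistant library.

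KLHL4 showed the same pattern, with folds of 4.46, 5.04 and 3.88 in the resistant treated and 3.79, 3.33 and 4.72 in the untreated resistant lists and 0 of 6 parental lists. Its region, chrX:87517514-87518141, covered all 250 bases printed above. PCDH15, a protocadherin gene, had 3.71, 4.24 and 5.7 under oxamate and 4.53, 4.44 and 4.83 without it, again with 0 parental lists. TNC, the gene of the matrix protein tenascin-C, had 4.38, 4.64 and 3.62 under oxamate, a peak in 1 untreated resistant list and 0 parental lists. Groups did not overlap in presence for any of these starts, as the rule requires.

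CDA, which encodes cytidine deaminase, the enzyme that inactivates the drug gemcitabine, had folds of 3.23, 3.7 and 3.86 in the resistant treated lists and 3.09, 3.09 and 3.58 in the untreated resistant lists. STC1, the gene of the secreted glycoprotein stanniocalcin-1, had 3.25, 4.43 and 3.71, and 4.02, 3.47 and 4.07. Neither had a peak in a parental list. ABCD2, a peroxisomal fatty acid transporter gene, had the best rank among gained regions that touched a promoter window. That rank was 48.3% in the median of its lists, near the middle. Its folds were 3.74, 3.11 and 3.71 under oxamate, and 1 untreated resistant list held it, at 2.7.

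Some gained starts are of genes known for roles in immunity, a grouping made after the starts were seen and not tested. They were NLRP3, an inflammasome sensor, IL12B, a subunit of interleukin-12, CR2, a complement receptor, HLA-DRB1, an antigen-presenting receptor chain, GPR132, and UBA7, which activates the ubiquitin-like protein ISG15. UBA7 had folds of 3.91, 4.31 and 3.95 in the resistant treated and 4.13, 2.7 and 3.85 in the untreated resistant lists and 0 parental lists. NLRP3 was also in 1 treated parental list. Genes known for roles in immunity were among the lost starts as well, namely CTSW, ITGAE and AZU1. Their share among all coding genes was not counted, so the grouping is not particular to gained starts. The remaining gained starts were those of CCDC201, SPATC1, PCDHB11, TSPAN19 and its neighbour LRRIQ1, LOC124905938, ZNF516, NPAS3, ZBTB42, CIMAP1C, CALHM5, SYTL4, C8orf74 and TRARG1. Median folds over the gained starts ran from 3.01 at ZNF516 to 5.57 at TGFBR2. Their median ranks by −log10 q ran from 48.3% at ABCD2 to 95.6% at TRARG1. HLA-DRB1 and PCDHB11 belong to families of close copies, and since the authors removed reads that mapped to several places their calls are less certain.

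**Figure D4:**
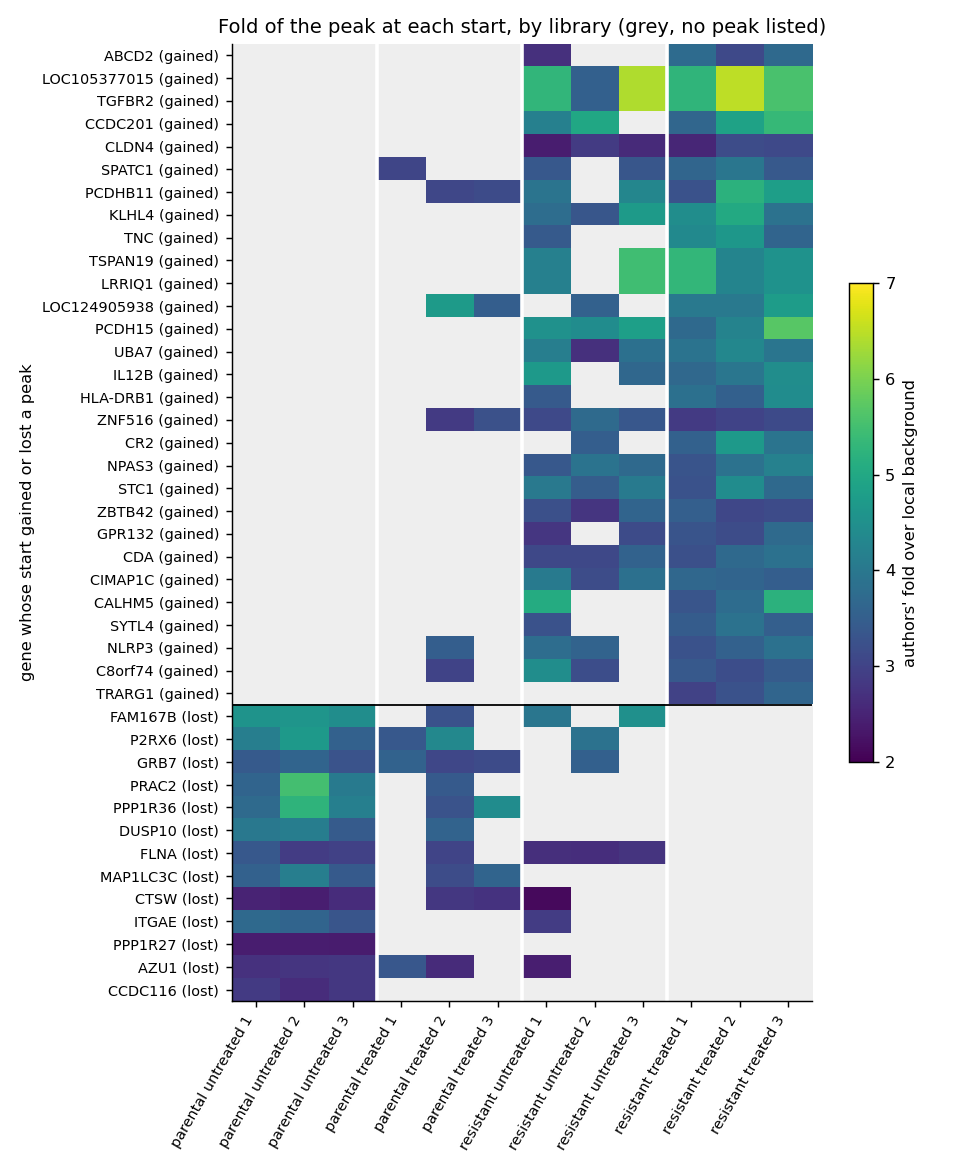
Authors' fold (colour scale) of the peak within 1 kb of each start that was gained or lost (rows, of which 10 are gene ends of genes without a start entry) in the 12 libraries (columns), with grey where no peak is listed. In untreated resistant libraries every gained start but that of TRARG1 is filled in at least 1 library, and in treated parental libraries 23 of the 29 gained starts have no peak.

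Lost starts were fewer, and the other 6 libraries divided them less cleanly. The start of DUSP10, at chr1:221741996-221742380, had folds of 4.0, 4.11 and 3.43 in the parental untreated lists and a peak in 1 treated parental list, at 3.59. PPP1R36, at chr14:64549770-64550152, had 3.72, 5.26 and 4.16, and 3.28 and 4.44 in 2 treated parental lists. Neither was in any of the 6 resistant lists. MAP1LC3C, a member of the family that decorates autophagosomes, had 3.56, 4.14 and 3.41 in the parental untreated lists, a peak in 2 treated parental lists and 0 resistant lists.

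GRB7, an adaptor of receptor tyrosine kinases, had 3.41, 3.61 and 3.28 without oxamate and 3.58, 3.06 and 3.15 with it in parental cells, but 1 untreated resistant list held it. FLNA, the actin cross-linker filamin A, had 3.38, 2.89 and 2.96 in the parental untreated lists and 2.67, 2.66 and 2.76 in the untreated resistant lists. A peak within 1 kb of its start was therefore missing in all resistant treated lists and present in all untreated resistant ones. The lost region lay 943 bp from the start, near that limit, and 1 treated parental list also had a peak within 1 kb. PPP1R27 and CCDC116 were in none of the other 6 lists. The rest were FAM167B, P2RX6, PRAC2, CTSW, ITGAE and AZU1.

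Some regions touched a promoter window of a gene whose start was not counted as gained or lost, since another peak within 1 kb or another start of the same gene was called in the other group. Gained regions touched the windows of 28 genes, and 14 of these starts were not counted. In 13 of the 14 the region lay on the start. The best-ranked were ABCA1, the cholesterol exporter gene, and GRAMD4. The ABCA1 region at chr9:104927966-104928315 had 3.45, 3.25 and 3.78 in the resistant treated lists, was in 3 of 3 untreated resistant lists and was also in 2 treated parental lists. The GRAMD4 region had 3.92, 3.53 and 4.23 and was in 3 untreated resistant and 0 parental lists. Lost regions touched the windows of 8 genes, and 4 of these starts were not counted. Regions lay on the start of SLC4A7, a bicarbonate transporter gene, and of CPNE9. They lay beside the start, at 235 bp for RGMB, a co-receptor for bone morphogenetic proteins, and at 67 bp for CLUL1. SLC4A7 had 3.23, 3.39 and 3.64 in the parental untreated lists and was in none of the other 9 lists.

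Counted over gene bodies with 1 kb added at each end, 345 of 19970 protein-coding genes (1.73%) held a gained region, 291 (1.46%) a lost region and 10 both. TPD52L1, HIVEP2, a zinc finger factor gene, RASAL2, a Ras GTPase-activating protein gene, and DLC1 held 3 gained regions each. Another 19 genes held 2, and TCEA2 is the shortest of them. DLC1 also held 1 lost region. TRIO, the gene of a guanine nucleotide exchange factor, held 3 lost regions, and ERRFI1, a feedback inhibitor of the EGF receptor, HPCAL1, GALNT9 and INSR held 2 each. Long genes have more room for regions: RASAL2 spans 385 kb and held 19 regions in all, and TRIO spans 367 kb and held 48, whereas ERRFI1 spans 14.6 kb and held 10.

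Over 19 lists of genes for metabolism, stress, signalling and lineage, 308 of 385 genes (80.0%) had a start called in all 6 lists, against 59.6% of all coding genes. A gained region lay in 8 of the 385 (2.08%) and a lost region in 11 (2.86%), beside 1.73% and 1.46% of all coding genes. The listed genes were also longer, with a median span of 35.3 kb against 24.2 kb. The lactate dehydrogenase genes were not among those hit. LDHA, the target of oxamate, had a start called in all 12 libraries with folds of 6.61, 6.98 and 8.23 in the parental untreated and 7.13, 7.64 and 6.87 in the resistant treated lists. Those ranges overlapped. LDHC was called in all 12 libraries and LDHB in 1 treated parental library alone.

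Lactate dehydrogenases and lactate transport had 1 hit in each direction among 13 genes, of which 6 had a start in all 6 lists. EMB, which encodes embigin, a chaperone of monocarboxylate transporters, had a gained region 1726 bp from an end of the gene, which has no start entry, with folds of 3.53, 3.84 and 3.93 under oxamate and 3.3, 3.87 and 3.71 without it in resistant cells. It was in no parental library. SLC16A3, the gene of the lactate exporter MCT4, had a lost region at chr17:82238752-82239556 with folds of 3.04, 3.08 and 2.93 in the parental untreated and 3.96, 3.28 and 2.66 in the treated parental lists. It was also in 1 untreated resistant list. It lay 2978 bp from the nearest start entry of SLC16A3 and overlapped an end of the neighbouring gene CSNK1D, which has no start entry.

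In glycolysis 18 of 20 starts were in all 6 lists. GPI and ENO1 held a lost region each, both away from the gene's start and both present in 3 of 3 untreated resistant lists. All 3 resistant treated lists held another peak within 1 kb of the GPI region. In pyruvate entry and the citric acid cycle 35 of 37 starts were in all 6 lists. OGDH, a subunit gene of 2-oxoglutarate dehydrogenase, held a gained region with folds of 3.11, 3.48 and 3.57 that was in none of the other 9 lists, and PDK3, a pyruvate dehydrogenase kinase gene, held a lost one. In glutamine and aspartate metabolism 16 of 18 starts were in all 6 lists.

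Among stress lists, NFE2L1, a relative of NRF2, held a gained region at chr17:48055761-48055997. Its folds were 4.99, 4.34 and 5.09 under oxamate and 4.51, 4.58 and 3.97 without it in resistant cells, with 0 of 6 parental lists. TXNRD1, of the same antioxidant list, held a lost region, and 17 of the 18 starts of that list were in all 6 lists. In the integrated stress response 17 of 18 starts were in all 6 lists. Lost regions there lay 904 bp from the start of DDIT4, an inhibitor of mTOR signalling, and 1635 bp from that of ATF3, a stress-induced factor. The DDIT4 region was in 3 of 3 treated parental and 1 untreated resistant lists. All 3 resistant treated lists held another peak within 1 kb of it, and the start of DDIT4 was called in all 6 lists. TFEB, a regulator of lysosome genes, held a gained region that was in all 6 of the other libraries as well.

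Signalling and identity lists had few hits. The Wnt list had CTNNB1 alone, with 24 of 29 starts in all 6 lists. The mesenchymal list had TGFBR2 and the epithelial list CLDN4, each with 10 starts in all 6 lists, of 19 and 18 genes. AP-1 factors had a lost region at MAFK (13 of 16 starts in all 6 lists), receptor tyrosine kinases had INSR (19 of 30) and multidrug transporters had ABCA1 gained and ABCC1 lost (7 of 10). The mitochondrial and energy-sensing list had TFEB alone (16 of 19). No gained or lost region lay in serine and one-carbon metabolism (14 of 16 starts in all 6 lists), fatty acid and fatty alcohol metabolism (22 of 25), the hypoxia response (12 of 16) or pancreatic lineage factors (10 of 21). The same was true of histone acetyltransferases and deacetylases, with 24 of 24 starts in all 6 lists, and of aminoacyl-tRNA synthetases, with 20 of 20. MARS1, of that last list, and FAR2, of the fatty alcohol list, kept their starts in all 6 lists.

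FAR2, a fatty acyl reductase gene, had folds of 4.15, 4.44 and 3.48 at its start in the parental untreated lists and 5.23, 5.19 and 5.6 in the resistant treated lists. These ranges did not overlap, and the values were not tested because a fold is set within its own list. MARS1, the methionyl-tRNA synthetase gene, had 7.6, 8.83 and 9.16, and 8.3, 7.56 and 8.33, which overlapped.

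Of 1558 miRNA hairpins, 6 (0.385%) had a gained and 8 (0.513%) a lost region within 1 kb, from 5 gained and 6 lost regions. Of the 15811 coding genes with a start entry, 0.259% had a gained and 0.114% a lost region within 1 kb of a start, and the difference was not tested. The gained ones were MIR4536-1 and MIR4536-2, which share a region, MIR7157, MIR4437, MIR6124 and MIR6501. The lost ones included MIR24-2, MIR27A and MIR23A, a cluster that shares the region chr19:13835803-13836468, with a median fold of 2.21 and a peak in 3 of 3 treated parental and 1 untreated resistant libraries. The others were MIR6745, MIR3185, MIR3614, MIR6886 and MIR3618.

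Along the genome, gained regions made up 1.04% of the regions of chromosomes 6 and 18 and 1.01% of those of chromosome 4, against 0.392% on chromosome 19. Lost regions made up 1.59% of the regions of chromosome 13 and 0.796% on chromosome 10, against 0.277% on chromosome 9. Bins of 5 Mb with at least 20 lost regions were found at 3 places, chosen after their values were seen. They were chr13:15000001-20000000 with 32 lost regions, chr1:120000001-125000000 with 27 and chr10:40000001-45000000 with 24. Together they held 83 lost regions (13.8%) and 1 gained region, and the lost regions there lay 1273 to 2334 kb, in the median of each bin, from a coding start or gene end. Chromosome 13 peaks in its bin numbered 413 to 619 in parental untreated and 220 to 357 in resistant treated lists. They numbered 602 to 820 in treated parental lists and 254 to 480 in untreated resistant lists, the last a range that overlaps both groups compared. The lost regions of the bins ran over chr13:16247745-18213125, chr1:122500030-124738102 and chr10:40046632-44973043. How uniquely reads can be placed there was not tested, so these calls are less certain. Outside the 3 bins there were 520 lost and 727 gained regions. Lost regions there could also lie far from a coding start or gene end. Examples were chr16:37265835-37265988 at 2876014 bp and chr17:24354966-24355058 at 2662443 bp. Leaving out the bins therefore does not remove all such calls.

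**Figure D5:**
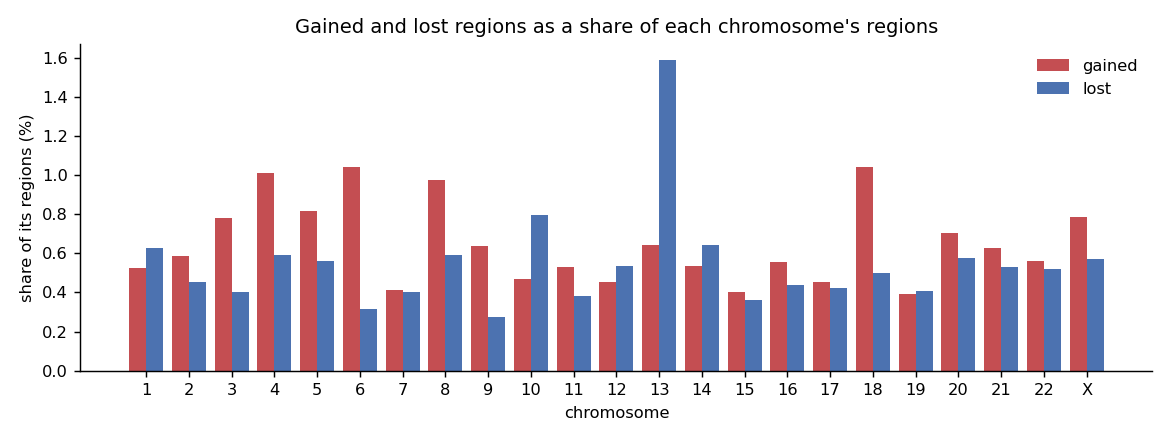
Gained (red) and lost (blue) regions as a percent of all regions of each chromosome (horizontal axis). The lost bar of chromosome 13, 1.59%, is the highest, and 32 of its 37 lost regions lie in 1 bin of 5 Mb.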

How the data were processed

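ATAC-seq libraries of parental and oxamate-resistant MIAPaCa2 cells, each untreated or treated with oxamate, were grouped by their titles into 4 groups of 3 libraries. The authors mapped reads to hg38 with Bowtie2 version 2.1.0, discarded reads that were mitochondrial, duplicated or not uniquely placed, and ran MACS2 in paired-end mode on each library for broad peaks. The MACS2 version is not given in the sources used here. Each deposited list gives, beside positions, the authors' score, the fold (a ratio of pileup over local background), and the deposited −log10 p and −log10 q of each peak, with q of at most 0.1. Read counts were not used here.

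Peaks on chromosomes 1 to 22 and X were kept, which left out 0.756% of those in the 6 lists. Positions are 1-based. Depth is not in the lists. Relative depth was derived from the background implied by the commonest fold and −log10 p in a list, divided by the smallest peak width, and the absolute depth is unknown. Gene spans and starts were taken from RefSeq (GRCh38.p14), where 15811 of 19970 protein-coding genes (79.2%) had a start entry, and both gene ends were used for the rest, including all genes of chromosome 8. Tests were exact permutation tests of 3 against 3 libraries (20 assignments, smallest p 0.1) with Benjamini-Hochberg adjustment over 10 tests. Scripts used Python 3.11.15, numpy 2.4.6, scipy 1.17.1 and pandas 2.3.3 and were tested on peak lists with known answers.

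The regions, gene lists and tests were chosen with earlier results of these data known. Named were, per direction, the 10 regions of best median rank by −log10 q, the 8 best-ranked regions on a promoter window (250 bp before to 50 bp after a start), the 5 genes with most regions, list members hit, and LDHA, LDHB, LDHC, MARS1 and FAR2. The full lists of gained and lost starts, miRNA hairpins, 5 Mb bins and the width ranges of the best-ranked regions were added after their values were seen. Some items chosen by these rules are not reported here. Alternatives were a −log10 q limit of 3, equal numbers of top-ranked peaks (47681 per list), wider peaks, 50% cover, 1 kb windows, merging within 100 bp, regions from 12 lists, a distance of 5 kb, all genes, a replicate block, leaving out each library and, added after seeing the data, leaving out the 3 dense bins and using start entries alone.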

Additional observations from a re-analysis of the deposited data

How the results depend on the processing

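The lists give calls and no counts, and depth, fragment length and group moved together, which limits every count here. Gained regions numbered 1175 when peaks had to cover 50% of a region and 474 in 1 kb windows. Lost regions numbered 229 with a −log10 q limit of 3, 348 with peaks of at least 112 bp and 47 in 1 kb windows, where the total was 521. Leaving out each library, with 2 of 2 in place of 3 of 3, gave 964 to 2214 gained regions, the most without resistant treated replicate 2, 923 to 1531 lost regions and totals of 2220 to 3137, with one-sided exact permutation p of 0.1 to 0.2. Peaks per library, -7092 as a difference of resistant treated minus parental untreated, became 2944 with the q limit and ranged from -9686 to -4263 without each library. Covered bases differed by 2.82 Mb, by 0.749 to 5.43 Mb without each library, and by -0.0327 after division by the smallest peak width. The share of peaks at starts differed by 2.01 percentage points, by -1.6 with the q limit, by -0.186 with peaks of at least 112 bp and by 0.656 to 3.14 without each library. The separation by shared bases ranged from -0.00398, without resistant treated replicate 1, to 0.0418, and was -0.000559 without resistant treated replicate 3. The share of gained regions at starts was 12.0% with the q limit, 15.9% at 5 kb, 12.5% with all genes and 5.8% with start entries alone, and that of lost regions was 6.9% with wider peaks, 19.1% at 5 kb, 9.95% with all genes and 2.76% with start entries alone. Over the libraries that chose no region, leaving out each gave differences of 51.6 to 61.2 points for gained and -18.4 to -9.89 for lost regions. The cause of these shifts was not tested.

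Correlations of deviations between libraries of the same replicate number were 0.00444, -0.0384 and -0.0124 over 86281 regions. Between libraries of different numbers they ran from -0.0287 to 0.0427. These values gave no sign of pairing by number, but calls centred within groups of 3 libraries cannot exclude it. A replicate block by exact sign flips (smallest two-sided p 0.25) left differences of -7092 peaks, 2.82 Mb, 2.01 points at starts, 56.0 points for gained and -15.4 points for lost regions, with exact p of 0.25 to 0.5. Of 112 alternative values, 77 kept their direction or size, 29 moved and 6 reversed.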
